A study of Bos grunniens with 18 samples.

Results

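The 200 most abundant genes outside the protein-coding class were examined in yak whole blood. They were chosen by ranking the 3241 genes of the deposited table whose transcript type is other than protein_coding by their mean count over all libraries and keeping the first 200, out of 20607 genes in the table. Because the counts chose them, their levels are given as a description. The ranking did not use the stage labels. All 200 passed the filter on low counts, and no library held fewer than 7 counts of any of them.

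Blood was taken into EDTA tubes from adult female yaks (*Bos grunniens*) of 4 to 8 years in 3 stages, named Y-A for anestrus, Y-E for estrus and Y-P for pregnancy. The labels name no agent or genetic change, and all groups share the same tissue and library protocol. By the study's methods, estrus was synchronised with a progesterone pessary, a prostaglandin and gonadotropin-releasing hormone before insemination, so stage and hormone treatment cannot be told apart. Each stage has 6 libraries, made from RNA captured on oligo(dT) beads, with totals of 30247267 to 48401076 counts. Each value below is in CPM, counts scaled to library size with TMM factors, unless FPKM, which is also divided by gene length, is named.

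As background, a pseudogene is a copy or remnant of a gene that is annotated as unable to make the full protein, and a processed pseudogene is one that arose from a spliced RNA. A long non-coding RNA (lncRNA) is a transcript with no annotated protein, and many are spliced and carry a poly(A) tail like a messenger RNA. MicroRNA (miRNA) genes mark the short precursor from which a regulatory RNA is cut, while ribosomal RNA and the RNA of the signal recognition particle mostly lack a poly(A) tail and are not the target of oligo(dT) capture.

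The 200 genes comprised 119 pseudogenes, 69 lncRNAs, 4 miRNAs, 4 processed pseudogenes, 2 genes of the type misc_RNA, 1 rRNA and 1 IG_V_gene. The last is an immunoglobulin variable segment, which contributes to an antibody protein although its type is not protein_coding. The 486 snoRNA and 439 snRNA genes of the table, whose products guide RNA modification and splicing, gave no member. The pseudogenes among the 200 were 23.3% of the 510 in the table and the lncRNAs 6.74% of 1024. The genes ranked 198 to 200 had mean counts of 508.5, 503.0 and 502.2, and those ranked 201 to 203 had 488.9, 481.4 and 476.9, so the limit does not fall at a gap. Only 4 of the 200 carry a gene name in the table, namely MIR223, MIR147B and a pair of genes named Metazoa_SRP.

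Together the 200 genes took a median of 1.63% of a library's counts, between 1.35% and 1.97%. All genes outside the protein-coding class took a median of 1.87%. The share of the 200 ran from 1.35% to 1.62% in Y-A with a median of 1.55%, from 1.55% to 1.97% in Y-E with a median of 1.79%, and from 1.42% to 1.78% in Y-P with a median of 1.65%. The 119 pseudogenes held the larger part, with medians of 1.02% in anestrus and 1.14% in both estrus and pregnancy. The 69 lncRNAs held medians of 0.464%, 0.526% and 0.449% in anestrus, estrus and pregnancy. These shares overlap between the stages. Between libraries of the same number, which deviated together in anestrus and estrus, the share of the 200 was higher in Y-E in 6 of 6, and so were those of the pseudogenes and of the lncRNAs. In Y-P the share of the 200 was higher than in Y-A for 4 of 6 numbers, which were not taken as paired.

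The most abundant member was the lncRNA ENSBGRG00000009649 on chromosome 5, from 506599 to 511062 on the plus strand, between FOXJ2 and APOBEC1 and overlapping no protein-coding gene of the table. Its mean count was 23880 and its mean FPKM 137. The second, ENSBGRG00000021408, was the only rRNA gene among the 200, with a mean count of 21772. The third was the pseudogene ENSBGRG00000004074 on chromosome 4, which lies between GIMAP8 and GIMAP1, genes of a family of GTPases known for lymphocyte survival. Per length it stood highest of these 3, with a mean FPKM of 499.9. It overlaps the unnamed protein-coding gene ENSBGRG00000018485 on the same strand, and how reads were shared between them was not stated.

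Levels were even for many members. The ratio of the highest to the lowest of the 18 libraries had a median of 2.58 over the 200 genes, was under 2 for 48 and over 10 for 11. The widest ratios were those of the Metazoa_SRP genes ENSBGRG00000017806 (420-fold) and ENSBGRG00000017822 (284-fold), followed by the rRNA gene (68.2-fold).

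The pseudogenes were concentrated on 2 chromosomes. Of the 119, 47 lie on chromosome 29 and 21 on chromosome 12, while chromosome 29 holds 240 of the 17366 protein-coding genes of the table. All 47 lie between bases 35414 and 10474568 of chromosome 29, whose last gene ends at 45293159. In that stretch the table lists 121 pseudogenes and 98 protein-coding genes. The members of this type are long, with a median span of 18248 bases, and 79 span more than 10000 bases. The plot of members by chromosome shows these 2 chromosomes beside the rest.

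**Figure D1:**
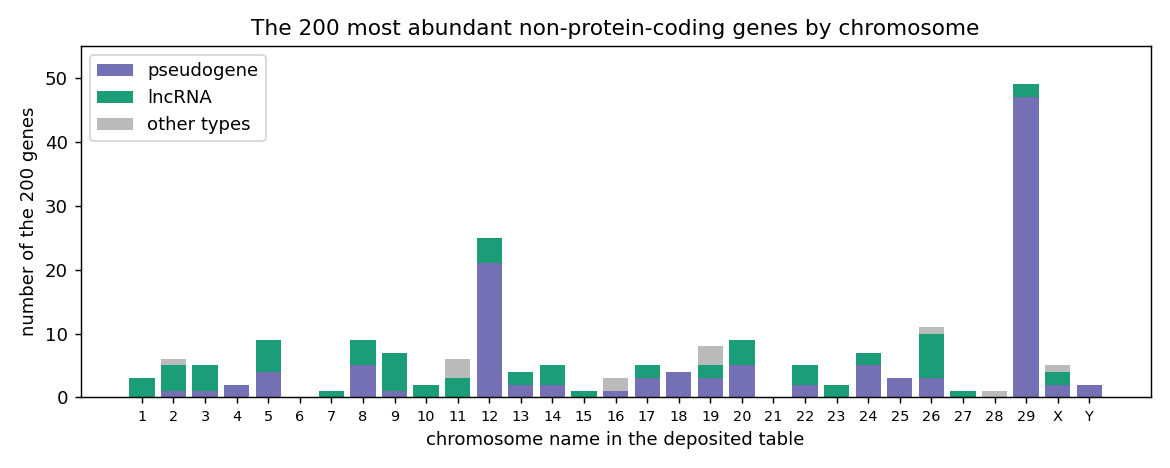
Number of the 200 genes (vertical axis) on each chromosome as named in the deposited table (horizontal axis), stacked by transcript type. Chromosome 29 carries 47 pseudogenes and chromosome 12 carries 21, and no other chromosome carries more than 5.

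For 61 of the 119 pseudogenes the table gives an entry of KEGG Orthology, a catalogue of genes grouped by function. An entry does not always name the protein that a gene resembles. The entry of KMT2A, for example, is held by TTC36 in the table, and the entry K10838 by 23 protein-coding genes and 48 lncRNAs. For 29 of the 61, no protein-coding gene of the table holds the same entry, among them 16 of 28 on chromosome 29 and 6 of 14 on chromosome 12. Of the entries, 50 were given a gene symbol from general knowledge and looked up in NCBI RefSeq's annotation of another yak assembly, Bosgru_T2T1.0. RefSeq lists 49 of these symbols as protein-coding. For 39 of the 50 it lists the symbol within 10 protein-coding genes of a named gene that also neighbours the pseudogene here, 21 of 26 on chromosome 29 and 10 of 12 on chromosome 12, at a median distance of 2 genes. None of these 39 symbols is the name of a protein-coding gene of the deposited table. Protein-coding genes without a name could not be matched in this way. For some symbols, such as STIP1, RPLP2 and APBB1IP, an unnamed protein-coding gene holds the same entry, so the coding gene is not shown to be absent. The symbols were assigned with the members and their places known, and where an entry stands for several related genes 1 was picked, so the match is partly fixed by the choice. Over the 36 entries that stand for 1 gene, 29 were found beside the shared neighbour. No test was made of this. Examples on chromosome 29 are the entries of RELA, a subunit of NF-kappa B, of FERMT3, which activates integrins in blood cells, and of IRF7, a factor of the interferon response, all named after the match was seen. Of the other 11, the entries of CTSD, EHD1, ATG2A, PRDX5 and MEN1 lay 13 to 17 genes away, and the remaining 6 were not beside a shared neighbour. No sequence or position was matched between the annotations, so it was not tested whether the RefSeq genes lie at the places of these pseudogenes.

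Several members at the top of the list carry such entries. ENSBGRG00000018954 on chromosome 12, from 9549286 to 9571424, has the entry of integrin beta 1, the common partner of many cell adhesion receptors. Its CPM ran from 413 to 653 in Y-A with a median of 495, from 424 to 661 in Y-E with a median of 485, and from 439 to 592 in Y-P with a median of 503. The stages overlapped almost fully. ENSBGRG00000021523 on chromosome 13, from 58345665 to 58396432, has the entry of the histone methyltransferase KMT2A, and its medians were 548, 513 and 456 CPM across the stages (Y-A, Y-E, Y-P). ENSBGRG00000000825 on chromosome 8 has the entry shared by the protein kinases N, with medians of 413, 458 and 533 CPM, and ENSBGRG00000005427 on chromosome 17 has that shared by the AKT kinases, with medians of 413, 514 and 384 CPM.

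Of the 200 genes, 22 overlap a protein-coding gene of the table, 13 on the same strand and 10 on the opposite one. The pseudogenes account for 19 of the 22, and none of the 69 lncRNAs overlaps one. The protocol in the labels marks the second strand, but whether the counts used strand was not stated, so reads of overlapping genes cannot be told apart.

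The first comparison asked which of these genes differ between estrus and anestrus. In the edgeR quasi-likelihood test with Benjamini-Hochberg adjustment over all 14508 genes tested, 0 of the 200 passed an adjusted p of 0.05 in Y-E vs Y-A. Over all genes 0.0207% passed. No member separated the stages without overlap, beside 0.303% of all genes. At an unadjusted p under 0.05 there were 28 of the 200 (14%), beside 6.2% of all genes and 8.33% of the 7669 tested genes whose mean count was at least that of rank 200. At the adjusted p, DESeq2 passed 3 of the 200, and limma on log2(FPKM + 1) passed 0. The share of all genes past it in DESeq2 is not given here, so the 3 describe the members only. The median log2 fold change was 0.09 over the 200 and -0.01 over all genes. With only the 12 libraries of Y-A and Y-E and the replicate number as a block, chosen after the data were seen, 0 of the 200 passed, beside 26 of all genes (0.179%). At an unadjusted p under 0.05 that fit held 53 of the 200 (26.5%), beside 12.1% of all genes. Among the 47 pseudogenes of chromosome 29, 36 had a positive value, 12 were under an unadjusted p of 0.05 and the median was 0.19. Of the 14508 genes, 7010 had a positive value. Among the 21 pseudogenes of chromosome 12, 6 were positive, 1 was under that p and the median was -0.05. Among the 51 on other chromosomes, 31 were positive, 7 were under it and the median was 0.09. The split by chromosome was chosen after values were seen and was not tested.

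Y-E replicate 6 stood apart from the other Y-E libraries in these genes. Its pseudogene share was 0.962%, below the 1.12% to 1.19% of the other 5 libraries. Y-A replicate 6 was likewise the lowest of its stage, at 0.914% beside 0.948% to 1.09%, so the library of the same number was low there too. Without Y-E replicate 6, 1 of the 200 passed, beside 23 of all genes (0.157%). It also reached the fold limit and is the pseudogene ENSBGRG00000021239 on chromosome 29, from 7206326 to 7229096, which has the entry of pyruvate carboxylase. Its CPM ran from 9.07 to 12.6 in Y-A, with a median of 11.2. In Y-E it ran from 7.26 to 28.5 with a median of 21.2, and Y-E replicate 6 was the lowest. In Y-P it ran from 8.49 to 17.3 with a median of 11. Its place among the 200 rests on the Y-E libraries. Over Y-A and Y-P its mean count was 426 (rank 226), below the 489.5 of rank 200. Its difference is therefore a description and gives no support to the counts that include it. Its log2 fold change for Y-E vs Y-A was 0.85 ± 0.24 (SE, adjusted p = 0.374, edgeR) with all libraries and 1.02 (adjusted p = 0.016) without Y-E replicate 6. Without that library 18 of the 47 chromosome 29 pseudogenes were under an unadjusted p of 0.05, beside 1227 of the 14508 genes. On chromosome 12 there were 4 of 21.

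The second comparison set pregnancy against anestrus. In Y-P vs Y-A, 19 of the 200 passed an adjusted p of 0.05 (9.5%), 3 higher and 16 lower in pregnancy, beside 5.83% of all genes (2.22% higher and 3.61% lower) and 8.01% of those with a mean count at least that of rank 200. With library size alone as the scaling, 24 passed, 16 of them higher (66.7%, beside 80.6% of all genes that passed), against 3 of 19 (15.8%, beside 38.1%) with TMM, so the balance of directions depends on the scaling. By type, 11 of 119 pseudogenes, 6 of 69 lncRNAs and 2 of 4 miRNAs passed. Of the 19, 2 also reached a log2 fold change of at least 1 in either direction (1.0% of the 200, beside 1.43% of all genes), 1 higher and 1 lower, beside 0.345% and 1.09% of all genes. Single libraries changed this count. It was 6 when Y-A replicate 1 was left out, 5 for Y-A replicate 4 or Y-P replicate 1, 4 for Y-A replicate 2, Y-E replicate 1 or Y-P replicate 4, and 1 for Y-P replicate 2 or 5. The 19 fell to 10 on leaving out Y-A replicate 4 or 5. They fell to 11 for Y-P replicate 2 or 4 and to 12 for Y-A replicate 1. The shares of all genes in these fits are not given here, so these counts describe the members only. The stages did not overlap for 12 of the 200 (6.0%), beside 3.56% of all genes and 4.64% of those with a mean count at least that of rank 200.

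The third comparison set pregnancy against estrus and held the most calls. In Y-P vs Y-E, 52 of the 200 passed (26.0%), 8 higher and 44 lower in pregnancy, beside 14.4% of all genes (5.77% higher and 8.68% lower) and 21.7% of those with a mean count at least that of rank 200. With library size alone 43 passed, 14 of them higher (32.6%, beside 70.3% of all genes that passed), against 8 of 52 (15.4%, beside 39.9%) with TMM. The 13 that also reached the fold limit (6.5%, beside 2.67% of all genes) were 1 higher and 12 lower, beside 0.448% and 2.22% of all genes. Of the 13, 6 kept both limits with library size alone, and 4 and 3 in limma on log2(FPKM + 0.1) and log2(FPKM + 1), where 2.30%, 2.42% and 0.986% of all genes reached both. With TMM the 13 comprised 5 pseudogenes, 7 lncRNAs and the rRNA gene. The lncRNAs passed in 18 of 69 and were lower in all 18, and the pseudogenes passed in 29 of 119, 7 higher and 22 lower. Without Y-E replicate 6, 52 passed and 17 also reached the fold limit, beside 13.7% and 2.58% of all genes. Without Y-E replicate 5, 29 passed, in a fit whose share of all genes is not given here. On chromosome 29, 11 of 47 pseudogenes passed, all lower in Y-P, and on chromosome 12 3 of 21. The stages did not overlap for 18 of the 200 (9.0%), beside 6.03% of all genes. Among those with a mean count at least that of rank 200 the share was 9.38%, so the members do not exceed it. Of the 44 lower genes, ENSBGRG00000018678 and ENSBGRG00000021239 are members only through the Y-E libraries. They ranked 208 and 226 when Y-E was left out, so they give no support to these counts. Both comparisons with pregnancy share its libraries. The plot of fold changes shows the 3 comparisons by type.

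**Figure D2:**
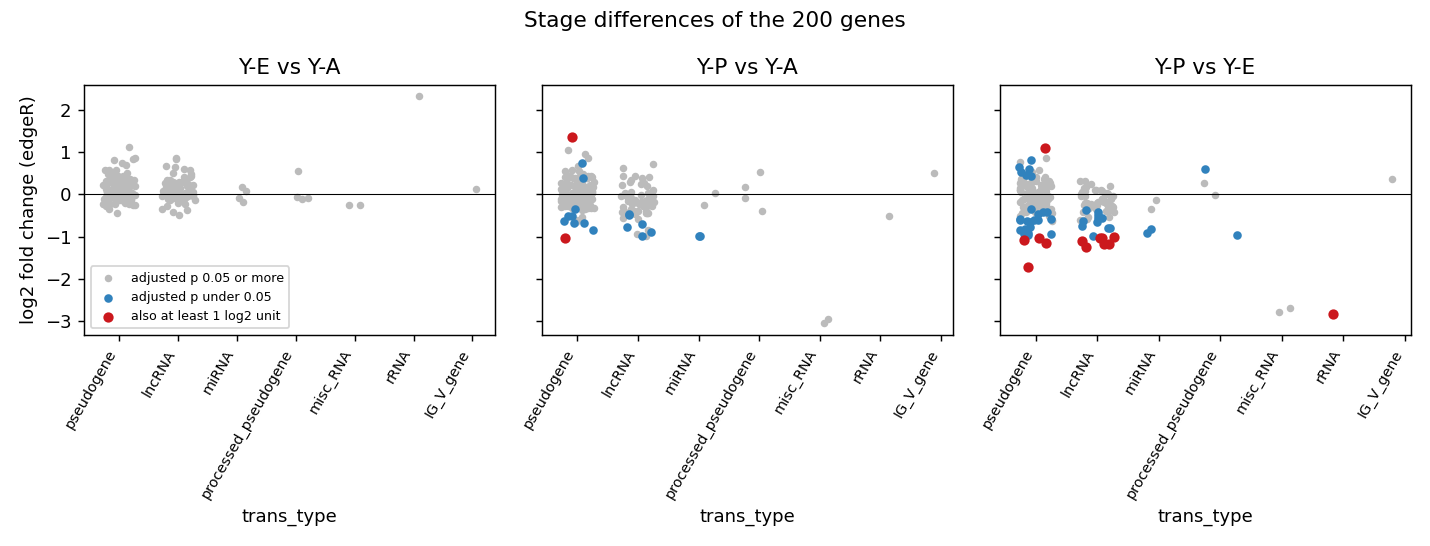
The log2 fold change of each of the 200 genes (vertical axis) by transcript type (horizontal axis), 1 panel per comparison and 1 point per gene, with a horizontal line at 0. Blue points passed an adjusted p of 0.05 and red points also differed by at least 1 log2 unit, which holds for 0, 2 and 13 genes from left to right.

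Some markers of blood cell types differed between the same stages. In Y-P vs Y-E, 4 of 5 neutrophil markers were lower, with a summed CPM of 4690 to 12388 in Y-E and 2639 to 5945 in Y-P, and 2 of 4 T cell markers were higher, with 697 to 836 in Y-E and 865 to 1448 in Y-P. Of the reticulocyte markers 3 of 4 were lower, at 92.1 to 4472 in Y-E and 39.0 to 122 in Y-P, and in Y-P vs Y-A all 4 were lower, from 439 to 10502 in Y-A. Among the platelet markers 1 of 2 tested was lower, and none of 7 B cell, 4 plasma cell or 3 monocyte markers passed in any comparison. In the same comparison of Y-P vs Y-E, 4 of 18 proteins of small nuclear and nucleolar RNA particles were higher. Of 30 tested genes on a list of non-coding RNA names 2 were lower, close to the share of all genes. Over all genes 5.77% were higher and 8.68% lower in Y-P vs Y-E. No marker gene found in the table was at 0 in every library, and the part of these shifts in the results was not tested. In whole blood, fewer cells of a type and less RNA per cell cannot be told apart.

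The smallest adjusted p among the pseudogenes in Y-P vs Y-E belonged to ENSBGRG00000024799 on chromosome 29, from 8440239 to 8455922 on the plus strand. Its entry is that of MAP3K11, a kinase upstream of JNK signalling, and no protein-coding gene of the table holds it. Its CPM ran from 51.3 to 79.8 in Y-A with a median of 60.0, from 65.1 to 127 in Y-E with a median of 84.4, and from 32.9 to 46.9 in Y-P with a median of 40.4. Every Y-P library lay below every Y-A and Y-E library. The log2 change measured -1.15 ± 0.15 (SE, adjusted p = 0.000271, edgeR) for Y-P vs Y-E and -0.67 ± 0.15 (adjusted p = 0.0149) for Y-P vs Y-A.

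ENSBGRG00000019302 has the entry of TLR8, a receptor of innate immunity that senses single-stranded RNA. It lies from 18342805 to 18345905 on the sequence that the table names Y, next to TLR7, although the animals are female. Its CPM ran from 205 to 275 in Y-A with a median of 244, from 202 to 361 in Y-E with a median of 292, and from 78.6 to 193 in Y-P with a median of 130. Here too Y-P did not overlap the other stages. In log2 units the difference was -1.08 ± 0.18 (SE, adjusted p = 0.000915, edgeR) for Y-P vs Y-E and -0.83 ± 0.18 (adjusted p = 0.0125) for Y-P vs Y-A.

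ENSBGRG00000018792, a pseudogene on chromosome 20 from 57422424 to 57437049, carries no entry and lies between SPACA6 and ZNF175. Its medians were 213, 280 and 145 CPM in anestrus, estrus and pregnancy, with ranges of 165 to 281, 181 to 383 and 92.7 to 158. It differed by -1.02 ± 0.18 (SE, adjusted p = 0.00147, edgeR) between Y-P and Y-E. ENSBGRG00000001776 on chromosome 2, from 5940209 to 6022847, has the entry of HSPG2, the basement membrane protein perlecan. It ran from 17 to 43.8 CPM in Y-A, from 30.8 to 113 in Y-E and from 8.88 to 33.0 in Y-P. Its fold change was the widest of the called pseudogenes, at -1.71 ± 0.35 (SE, adjusted p = 0.00378, edgeR), while Y-E and Y-P overlapped. It is named outside the fixed rule, after its values were seen.

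The 1 called gene that was higher in pregnancy was the pseudogene ENSBGRG00000009389 at rank 200, on chromosome 26 spanning 47320331 to 47338578 of the minus strand. It overlaps RHOT2, a mitochondrial GTPase, on the same strand and WDR24, a part of the GATOR2 complex, on the opposite strand. Its CPM ran from 3.16 to 11.4 in Y-A with a median of 9.49, from 8.60 to 12.9 in Y-E with a median of 9.67, and from 13.8 to 34.3 in Y-P with a median of 20.9. All Y-P libraries exceeded all others. Its place among the 200 rests on those libraries, since over Y-A and Y-E its mean count was 313 (rank 245), below the 471 of rank 200, so its difference is a description and gives no support to the counts of higher genes, which include it. The log2 fold change was 1.36 ± 0.26 (SE, adjusted p = 0.00777, edgeR) for Y-P vs Y-A and 1.10 ± 0.26 (adjusted p = 0.00945) for Y-P vs Y-E. RHOT2 had 0.36 and 0.37 (adjusted p = 0.124 and 0.0715), and WDR24 0.20 and -0.01 (adjusted p = 0.467 and 0.985).

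The other gene past both limits in Y-P vs Y-A was ENSBGRG00000024752, a pseudogene spanning 15539748 to 15680358 of chromosome 12 with no entry. It ran from 31.3 to 57.9 CPM in Y-A with a median of 34.9, from 25.8 to 52.2 in Y-E with a median of 33.3, and from 11.5 to 32.0 in Y-P with a median of 15.2. Replicate 6 was the highest in every stage, and the ranges of Y-A and Y-P overlapped slightly. The log2 change measured -1.04 ± 0.24 (SE, adjusted p = 0.0181, edgeR) for Y-P vs Y-A and -0.91 ± 0.24 (adjusted p = 0.0149) for Y-P vs Y-E. The Y-P vs Y-A value fell short of the fold limit with library size alone (-0.85), in limma (-0.87 and -0.69) and without Y-A replicate 6 or any 1 of Y-P replicates 2 to 5 (-0.91 to -0.998), with the adjusted p at most 0.044 in each.

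**Figure D3:**
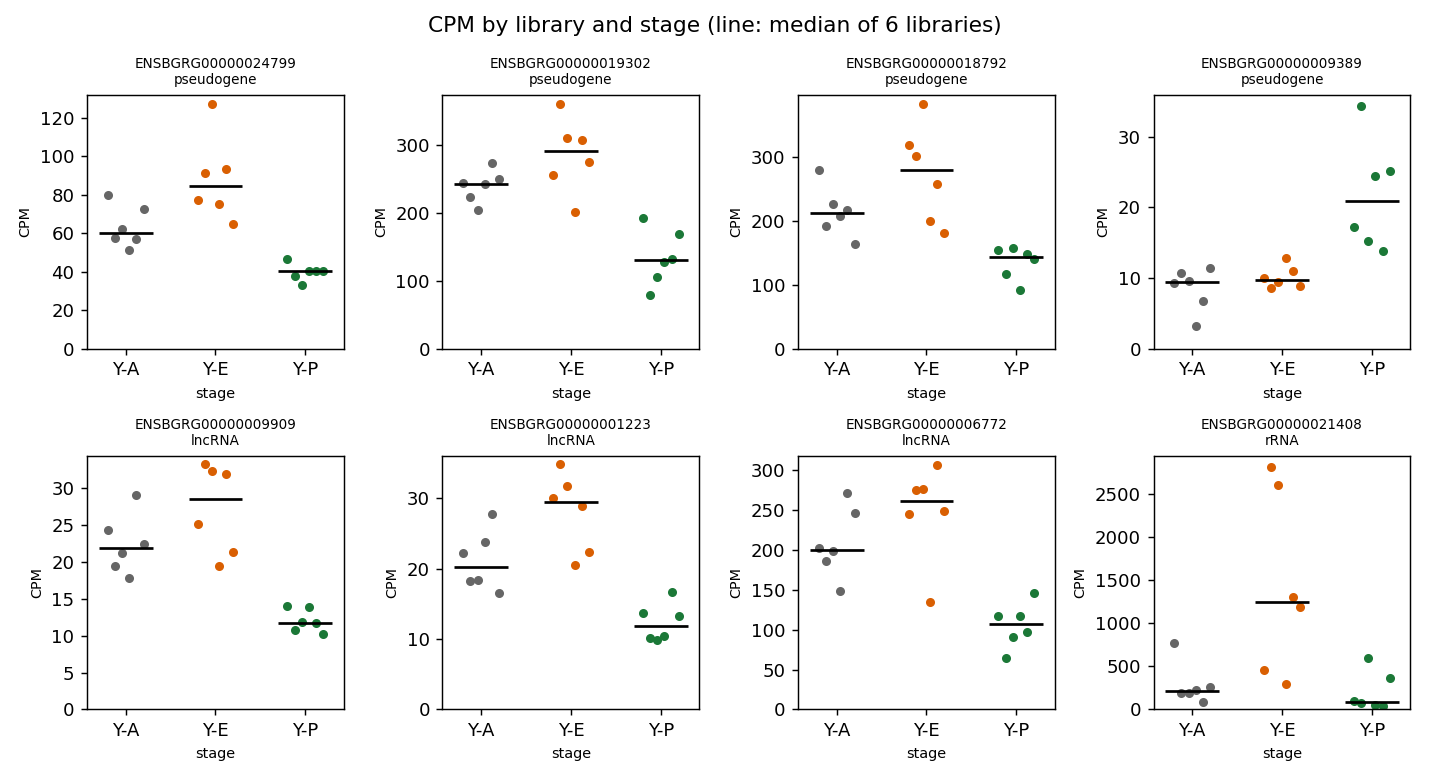
CPM (vertical axis, from 0) of 8 genes past both limits in Y-P vs Y-E, 1 point per library by stage (horizontal axis), with a line at the median of 6 libraries. For 6 of them no Y-P library reaches the median of either other stage, ENSBGRG00000009389 lies highest in Y-P, and the rRNA gene spreads widely within each stage.

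Among the lncRNAs, ENSBGRG00000009909 spans 43994205 to 44195616 of chromosome 24, between RBM24 and ATXN1. Its CPM ran from 17.8 to 29.1 in Y-A with a median of 21.8, from 19.4 to 33.3 in Y-E with a median of 28.5, and from 10.2 to 14 in Y-P with a median of 11.7. Y-P did not overlap the other stages. In log2 units the difference was -1.17 ± 0.16 (SE, adjusted p = 0.000271, edgeR) for Y-P vs Y-E and -0.89 ± 0.15 (adjusted p = 0.0045) for Y-P vs Y-A.

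ENSBGRG00000001223 spans 22188265 to 22334986 of chromosome 8 and ends 21 bases before GNG7, a G protein gamma subunit, on the same strand. It ran from 16.6 to 27.8 CPM in Y-A with a median of 20.3, from 20.6 to 34.8 in Y-E with a median of 29.5, and from 9.86 to 16.7 in Y-P with a median of 11.8. Y-P lay below Y-E throughout and touched the range of Y-A. The log2 fold change was -1.18 ± 0.17 (SE, adjusted p = 0.000426, edgeR) for Y-P vs Y-E and -0.78 ± 0.17 (adjusted p = 0.0146) for Y-P vs Y-A. GNG7 itself, looked at after these values were seen, had -1.27 (adjusted p = 0.000271) and -0.89 (adjusted p = 0.00669).

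ENSBGRG00000006772 spans 95709582 to 95716312 of chromosome 9, 748 bases from FOSL2, a subunit of the AP-1 transcription factor, on the same strand. It ran from 148 to 272 CPM in Y-A with a median of 200.3, from 135 to 306 in Y-E with a median of 262, and from 64.0 to 147 in Y-P with a median of 107. The log2 change measured -1.23 ± 0.20 (SE, adjusted p = 0.000912, edgeR) for Y-P vs Y-E and -0.99 ± 0.20 (adjusted p = 0.00945) for Y-P vs Y-A. FOSL2 had -0.92 (adjusted p = 0.00785) and -0.56 (adjusted p = 0.119).

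The remaining called lncRNAs, outside the rule for named genes, were ENSBGRG00000013365, ENSBGRG00000021075, ENSBGRG00000019191 and ENSBGRG00000000801, with log2 fold changes of -1.01, -1.11, -1.04 and -1.04 for Y-P vs Y-E. The last lies 18 bases from DDX39A, an RNA helicase gene, which had -0.87 (adjusted p = 0.00357). The most abundant lncRNA, ENSBGRG00000009649, ran from 597 to 892 CPM in Y-A, from 635 to 1094 in Y-E and from 306 to 687 in Y-P, and fell by 0.79 ± 0.19 (SE, adjusted p = 0.0102, edgeR) on the log2 scale in Y-P vs Y-E. ENSBGRG00000025873 on chromosome X, 21 bases from ELF4 on the opposite strand, had -0.50 ± 0.14 (adjusted p = 0.0265), and ELF4, an ETS transcription factor, had -0.51 (adjusted p = 0.0175). ENSBGRG00000016675 on chromosome 13, which ends 21 bases before BIRC3, an inhibitor of apoptosis, had medians of 458, 456 and 511 CPM across the stages (Y-A, Y-E, Y-P).

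The rRNA gene ENSBGRG00000021408, on chromosome 28 from 287756 to 291733, had wide ranges within stages. It ran from 85.4 to 775 CPM in Y-A with a median of 209, from 293 to 2802 in Y-E with a median of 1245, and from 41.1 to 591 in Y-P with a median of 84.0. The stages overlapped, and Y-E held the 4 highest libraries. In log2 units the difference was -2.84 ± 0.72 (SE, adjusted p = 0.014, edgeR) for Y-P vs Y-E and 2.33 ± 0.71 (adjusted p = 0.437) for Y-E vs Y-A. Its orthology entry is the one that COL3A1, a collagen gene, holds in the table, so an entry does not always name what a gene of these types makes.

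The Metazoa_SRP genes, whose RNA is the scaffold of the signal recognition particle, lie near each other on chromosome 11, spanning 28944495 to 28944794 and 28958531 to 28958830 of the minus strand. ENSBGRG00000017822 ran from 0.903 to 89.6 CPM in Y-A with a median of 2.25, from 1.36 to 96.8 in Y-E with a median of 7.41, and from 0.341 to 16.5 in Y-P with a median of 0.825. ENSBGRG00000017806 had medians of 1.38, 4.65 and 0.453 CPM. Both were at 14.7 CPM or more in Y-A replicates 1 and 4, Y-E replicates 2 and 6 and Y-P replicate 5, and at 8.79 CPM or less in the other 13 libraries. They are copies of 1 RNA, so how reads were split between them is uncertain. Neither passed in any comparison, with adjusted p of 0.178 and 0.198 for Y-P vs Y-E in edgeR.

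Of the miRNA genes, MIR223, known for its high level in neutrophils and other myeloid cells, lies on chromosome X from 102539600 to 102539707. It ran from 29.4 to 53.9 CPM in Y-A with a median of 31.3, from 27.8 to 45.5 in Y-E with a median of 37.9, and from 21.5 to 37.1 in Y-P with a median of 30.2. It did not pass, with -0.34 ± 0.18 (SE, adjusted p = 0.214, edgeR) for Y-P vs Y-E. The libraries were not made from small RNA, so the values are reads at the precursor's place and not the mature miRNA.

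Both other miRNA genes named here, ENSBGRG00000010782 and ENSBGRG00000010798, are 84 bases long and lie inside DDX5, an RNA helicase gene, on its strand of chromosome 19, from 16589726 to 16589809 and from 16590521 to 16590604. ENSBGRG00000010782 ran from 22.9 to 44.5 CPM in Y-A with a median of 29.7, from 22.7 to 32.4 in Y-E with a median of 27.2, and from 8.64 to 25.2 in Y-P with a median of 14.1. It fell in Y-P vs Y-A by 0.97 ± 0.23 (SE, adjusted p = 0.0198, edgeR) on the log2 scale. ENSBGRG00000010798 had medians of 20.3, 20.2 and 10.9 CPM and a log2 fold change of -0.99 ± 0.23 (adjusted p = 0.018). DDX5 had 0.22 (adjusted p = 0.331) for Y-P vs Y-A and 0.35 (adjusted p = 0.0804) for Y-P vs Y-E, where the miRNA genes had -0.81 (adjusted p = 0.0229) and -0.90 (adjusted p = 0.0123). The difference between each miRNA gene and DDX5 was not tested. Which exon or intron of DDX5 they lie in is not given by the table.

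The higher genes in Y-P vs Y-E included the processed pseudogene ENSBGRG00000004343 on chromosome 16, with medians of 24.4, 22.5 and 35.0 CPM across the stages (Y-A, Y-E, Y-P) and a log2 fold change of 0.60 ± 0.16 (SE, adjusted p = 0.0203, edgeR). The GIMAP-flanked pseudogene ENSBGRG00000004074 ran from 407 to 496 CPM in Y-A, from 372 to 500 in Y-E and from 452 to 810 in Y-P. It had 0.44 ± 0.13 (adjusted p = 0.0246), and its overlapping gene ENSBGRG00000018485 had 0.46 (adjusted p = 0.0718). The processed pseudogenes ENSBGRG00000004144 and ENSBGRG00000012773 did not pass in any comparison, nor did ENSBGRG00000022479 on chromosome 19, which ran from 241 to 1041 CPM in Y-A with Y-A replicate 1 highest.

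For 35 of the members with a KEGG Orthology entry, 1 to 3 protein-coding genes with the same entry were tested. The sign of the member's log2 fold change was that of the median of those genes in 21 of 35 for Y-E vs Y-A, 16 of 35 for Y-P vs Y-A and 21 of 35 for Y-P vs Y-E. The median size of the difference was 0.22, 0.37 and 0.26 log2 units.

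The study followed 6 cows and each stage has libraries numbered 1 to 6, although the labels do not say that a number marks a cow. A test of the replicate number beside stage in edgeR passed 9 of the 200 genes at an adjusted p of 0.05 (4.5%), beside 2.73% of all genes. Without Y-E replicate 6 it passed 7. ENSBGRG00000026000, a pseudogene on chromosome 24 from 7856845 to 7919535 with the entry of tenascin, an extracellular matrix protein, and 352 bases from CYP21A2, had the smallest adjusted p (0.00345). Its number 4 libraries held 45.6, 48.4 and 44.0 CPM across the stages (Y-A, Y-E, Y-P), above all other libraries, which lay between 8.01 and 28.4 CPM.

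ENSBGRG00000022475, a pseudogene on the same chromosome from 6453093 to 6454760, has the entry of the major histocompatibility complex class I, whose genes are highly variable between individuals. Its number 1 libraries held 11.1, 9.86 and 9.85 CPM in the same order, and the others 19.2 to 145 (adjusted p = 0.00445, edgeR). Its entry is shared by 12 protein-coding genes of the table, so how reads were split between copies is uncertain. The IG_V_gene ENSBGRG00000020488 on chromosome 16 was lowest in the number 6 libraries, at 4.44, 3.27 and 4.26 CPM, with the others between 7.34 and 48.1 (adjusted p = 0.00691).

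The lncRNA ENSBGRG00000024123 on chromosome 26 was lowest in the number 6 libraries of each stage, at 86.9, 79.6 and 132 CPM (adjusted p = 0.00369, edgeR). ENSBGRG00000015465 on chromosome 9, which lies 557 bases from RNF144A, held 11.9 to 16.4 CPM in the number 5 and 6 libraries and 19.9 to 33.6 in the others (adjusted p = 0.00396). ENSBGRG00000016727 on chromosome 20 held 21.2 to 27.9 CPM in the number 5 and 6 libraries and 32.5 to 49.9 in the others (adjusted p = 0.0047). None of these 6 passed in a comparison of stages.

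**Figure D4:**
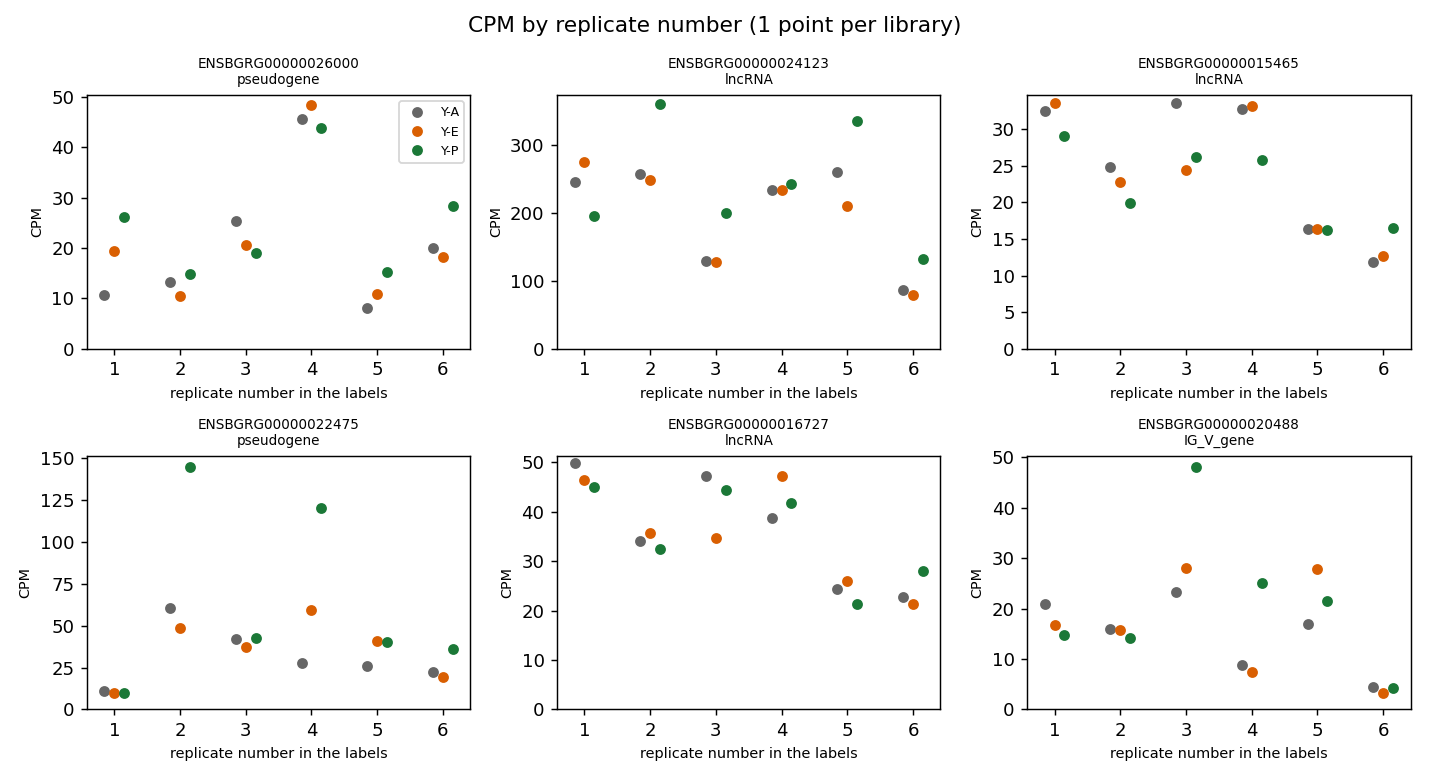
CPM (vertical axis, from 0) of the 6 genes with the smallest adjusted p for the replicate number, by the number in the labels (horizontal axis), 1 point per library coloured by stage. In ENSBGRG00000026000 the number 4 libraries hold 44.0 to 48.4 CPM and all others 28.4 or less.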

How the data were processed

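Whole blood RNA of yaks in 3 stages was sequenced. Per the submitters' processing notes, the authors used cutadapt 1.9, HISAT2 2.2.1 and StringTie 2.1.6. The deposited table gives a count and an FPKM per gene and library. The counts are whole numbers with no normalization, and how they were made is not given in the sources used here. The FPKM values were made by the authors per gene length and library size.

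Counts were fitted in edgeR 4.0.16 (R 4.3.3) with TMM scaling, filterByExpr and 1 coefficient per stage over all 18 libraries, and tested by the quasi-likelihood F test, two-sided. P-values were adjusted by Benjamini-Hochberg over 14508 genes. Calls needed both an adjusted p under 0.05 and a log2 fold change of 1 or more in size. The procedure was tested on simulated data. Alternatives were DESeq2 1.42.0, limma 3.58.1 on log2(FPKM + 1) and log2(FPKM + 0.1), other scalings, no filter, a replicate block and leaving out libraries. A floor of 3 counts equals 0.0604 to 0.107 CPM, which covers counting error only.

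Named genes were the 10 most abundant, the 3 most abundant of each type, the called ones (where over 12, the 6 with the smallest adjusted p in each direction), the 6 with the smallest adjusted p for the replicate number, named non-coding genes, and the 3 on each side of rank 200. The members and lists were chosen with earlier results of these data known. The comparison with genes of like mean count, the split by chromosomes 29 and 12, the neighbours within 1000 bases, the symbols of the orthology entries and the limit of 3 genes per entry were chosen after values were seen. The labels do not say whether libraries of a stage are separate animals, so p-values measure the spread between these libraries. Deviations from stage means correlated at 0.11 to 0.515 between same-numbered libraries of Y-A and Y-E. They were over 0.1 in 6 of 6, with each library matching its own number best. These libraries were therefore taken as paired in the shares by number and in the fit of Y-A and Y-E with a block. The main fit had no block, so its standard errors and adjusted p ignore this pairing. Numbers in Y-P correlated at -0.054 to 0.40 with the other stages. Of these pairs 8 of 12 were over 0.1 and 7 of 12 matched their own number best. Since not every pair passed 0.1, they were not taken as paired, which does not show that the animals differ. RefSeq was used for names and neighbours only.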

Additional observations from a re-analysis of the deposited data

Results flagged for a closer look

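Of 126 sets of 6 libraries examined (the named genes and the shares by type, in each stage), 17 held a library whose gap to the nearest other exceeded Dixon's critical value as a share of the set's range. Chance gives about 1 in 20 sets only where sets are independent and values are normally distributed. Some sets share values, since the share of a type is made of its genes, so the 17 are a description. Y-A replicate 5 accounted for 4, Y-E replicate 2 and Y-P replicate 5 for 3 each, Y-A replicate 1, Y-E replicate 4 and Y-E replicate 6 for 2 each, and Y-A replicate 6 for 1.

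In Y-A replicate 5 the highest values of Y-A were 892 CPM for the lncRNA ENSBGRG00000009649, 53.9 CPM for MIR223 (ENSBGRG00000009275), 44.5 CPM for the miRNA gene ENSBGRG00000010782 and 0.0138% of counts for the miRNAs together. Y-A replicate 1 was the highest of Y-A for the rRNA gene ENSBGRG00000021408, at 775 CPM and 0.0674% of counts.

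The Metazoa_SRP genes stood apart in Y-E replicate 2, at 96.8 CPM for ENSBGRG00000017822 and 86.9 CPM for ENSBGRG00000017806, together 0.0174% of counts. In Y-P replicate 5 they held 16.5 and 14.7 CPM, together 0.0032% of counts.

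The pseudogene ENSBGRG00000024752 was far above the others in Y-A replicate 6, at 57.9 CPM, and in Y-E replicate 6, at 52.2 CPM. The pseudogene share was far below the others in Y-E replicate 6, at 0.962% of counts. In Y-E replicate 4 the lncRNA ENSBGRG00000006772 was lowest, at 135 CPM, and the pseudogene ENSBGRG00000026000 highest, at 48.4 CPM.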

How the results depend on the processing

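In Y-E vs Y-A, where 0 of the 200 passed, DESeq2 passed 3 and edgeR without Y-E replicate 6 passed and called 1, so leaving out 1 library gave 0 to 1. In Y-P vs Y-A, the 2 called genes became 1 with library size only and 5 with the replicate block, and 1 to 6 on leaving out 1 library. They became 6 when Y-A replicate 1 was left out and 5 for Y-A replicate 4 or Y-P replicate 1. They became 4 for Y-A replicate 2, Y-E replicate 1 or Y-P replicate 4, and 1 for Y-P replicate 2 or 5. Over all genes 1.43% were called in the main fit, 1.80% with library size only and 1.76% with the replicate block. Shares of all genes for most fits that leave out 1 library are not given here, so those counts describe the members only. The 19 past an adjusted p of 0.05 became 31 in DESeq2, 33 in limma on log2(FPKM + 1), 32 with 0.1 as pseudocount and 29 with the replicate block. The shares of all genes past the adjusted p in these fits are not given here, so the counts describe the members only. Leaving out 1 library gave 10 to 22, namely 10 for Y-A replicate 4 or 5, 11 for Y-P replicate 2 or 4 and 12 for Y-A replicate 1. In Y-P vs Y-E, the 13 called genes became 6 with library size only and 4 and 3 in limma with pseudocounts of 0.1 and 1. Over all genes 2.67% were called in the main fit, and 2.30%, 2.42% and 0.986% in these fits. On leaving out 1 library the members called numbered 9 to 17. The 52 past the adjusted p became 29 without Y-E replicate 5, and 29 to 55 over all such fits. The cause of these shifts was not tested.

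Library size only moved the median log2 fold change of all genes from 0.03 to 0.19 in Y-P vs Y-A and from 0.04 to 0.18 in Y-P vs Y-E. With limma on log2(FPKM + 1), 24 of 33 were higher in Y-P vs Y-A (72.7%, beside 89.3% of all genes that passed). In Y-P vs Y-E 19 of 47 were higher (40.4%, beside 78.2%). Of 1775 refits of the genes past the threshold, 1427 stayed past it, 348 did not and 0 turned the direction. Most of them, 1278, left out 1 library, and 1043 of these stayed. The refits share libraries, and some left out a library of a stage outside the comparison, so they are not independent. Of the 71 results, 44 stayed without Y-E replicate 5, the fewest on leaving out 1 library, and 69 without Y-E replicate 4, the most. Of the 71 results in each setting, library size only kept 40 and limma kept 37 and 36 with pseudocounts of 0.1 and 1. DESeq2 kept 71 and the replicate block 67. Named genes not past the threshold were kept apart: of 1875 refits 23 passed, and 116 had the opposite sign, none of them past the threshold. The replicate number passed 9 genes, 7 without Y-E replicate 6. Ranking by FPKM kept 143 of the 200 genes, and by CPM or over 17 libraries all 200.

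The replicate block, fitted over all 18 libraries or over the 12 of Y-A and Y-E, passed 0 of the 200 in Y-E vs Y-A and so changed no call there. In Y-P the same numbers correlated over 0.1 in 8 of 12 pairs with the other stages, and 7 of 12 matched their own number best. Since not every pair passed 0.1, the numbers were not treated as a pairing there, and whether they pair is not settled. The block over all 18 libraries passed 29 of the 200 in Y-P vs Y-A and 58 in Y-P vs Y-E, beside 19 and 52 without it. The shares of all genes past the adjusted p with the block are not given here, so these counts describe the members only. Calls over all genes at both limits rose with the block too, from 1.43% to 1.76% in Y-P vs Y-A and from 2.67% to 2.90% in Y-P vs Y-E.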
